A study of Mus musculus with 9 samples.

Results

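The genes described here encode the folding machinery of the endoplasmic reticulum (ER), the sensors of the unfolded protein response and the targets of the transcription factor ATF4. A list of 40 genes was taken, and 39 of them had a probe set that carries their symbol alone, of 17731 genes measured. Sec61b, a translocon subunit, shared its only probe set with another symbol and was left out. By role the measured genes were 11 chaperones and cochaperones, 6 disulfide-forming enzymes, 5 genes of ER-associated degradation and the translocon, 4 genes of the sensors and 13 genes of the ATF4 branch. Where a gene had several probe sets, the brightest on average was kept, but each of the 39 genes had only 1.

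All groups came from bone marrow cells of C57BL6 mice immortalised with HoxA9, a homeobox transcription factor. The IDH1mut cells carried a pSF91 retroviral vector with mutant IDH1 and a fluorescent protein gene behind an internal ribosome entry site, the IDH1wt cells the same kind of vector with wild-type IDH1, and the CTL cells the vector with EGFP alone. The cells were injected into irradiated syngeneic mice, and 4 weeks later GFP-positive cells were sorted from the marrow and their total RNA was put on Affymetrix mouse arrays, 3 per group. IDH1 is the cytosolic isocitrate dehydrogenase, and the comparisons address what its mutant form changes in such cells. The labels give neither the substitution in IDH1mut nor the age of the mice, and do not say whether the 3 arrays of a group came from separate mice or clones, so p-values measure the spread between these samples.

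Proteins that enter the ER are folded by chaperones such as BiP and by protein disulfide isomerases, and misfolded ones are returned to the cytosol and degraded. When unfolded proteins accumulate, the sensors IRE1, ATF6 and PERK respond: IRE1 splices the mRNA of XBP1, ATF6 is cleaved to a transcription factor, and PERK phosphorylates the translation factor eIF2alpha. XBP1 and ATF6 induce chaperone genes, whereas eIF2alpha phosphorylation favours translation of ATF4, which induces genes of amino acid supply and stress. Kinases outside the ER, such as GCN2 for amino acid shortage, phosphorylate the same site, so the ATF4 branch can respond without the others. In the marrow this machinery is prominent in cells that make much secreted or granule protein, such as plasma cells and promyelocytes.

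In IDH1mut against CTL cells, 12 of the 17 chaperone and disulfide genes fell and 1 rose, while 3 of the 13 ATF4 branch genes rose and 1 fell. The largest falls were those of Sdf2l1 (1.99-fold), Pdia4 (1.75-fold) and Pdia3 (1.75-fold), and the largest rises those of Chac1 (1.80-fold) and Asns (1.67-fold). Hspa5, the gene of BiP, did not pass (log2 fold change -0.04). None of the 39 genes passed the threshold in IDH1wt against CTL cells, where 2.33% of all genes did. The values are log2 expression values made by RMA. Each log2 fold change is one group's mean minus the other's, with its standard error (SE), and "rose" and "fell" mark an adjusted p under 0.05 in limma with Benjamini-Hochberg adjustment over all genes. Over all genes 10.1% rose and 10.6% fell in IDH1mut against CTL (20.7% together, or 3663 genes, and 2370 without CTL replicate 1), with a median log2 fold change of -0.04. The arrays are of bulk RNA, in which fewer cells of a type and less RNA per cell cannot be told apart.

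**Figure D1:**
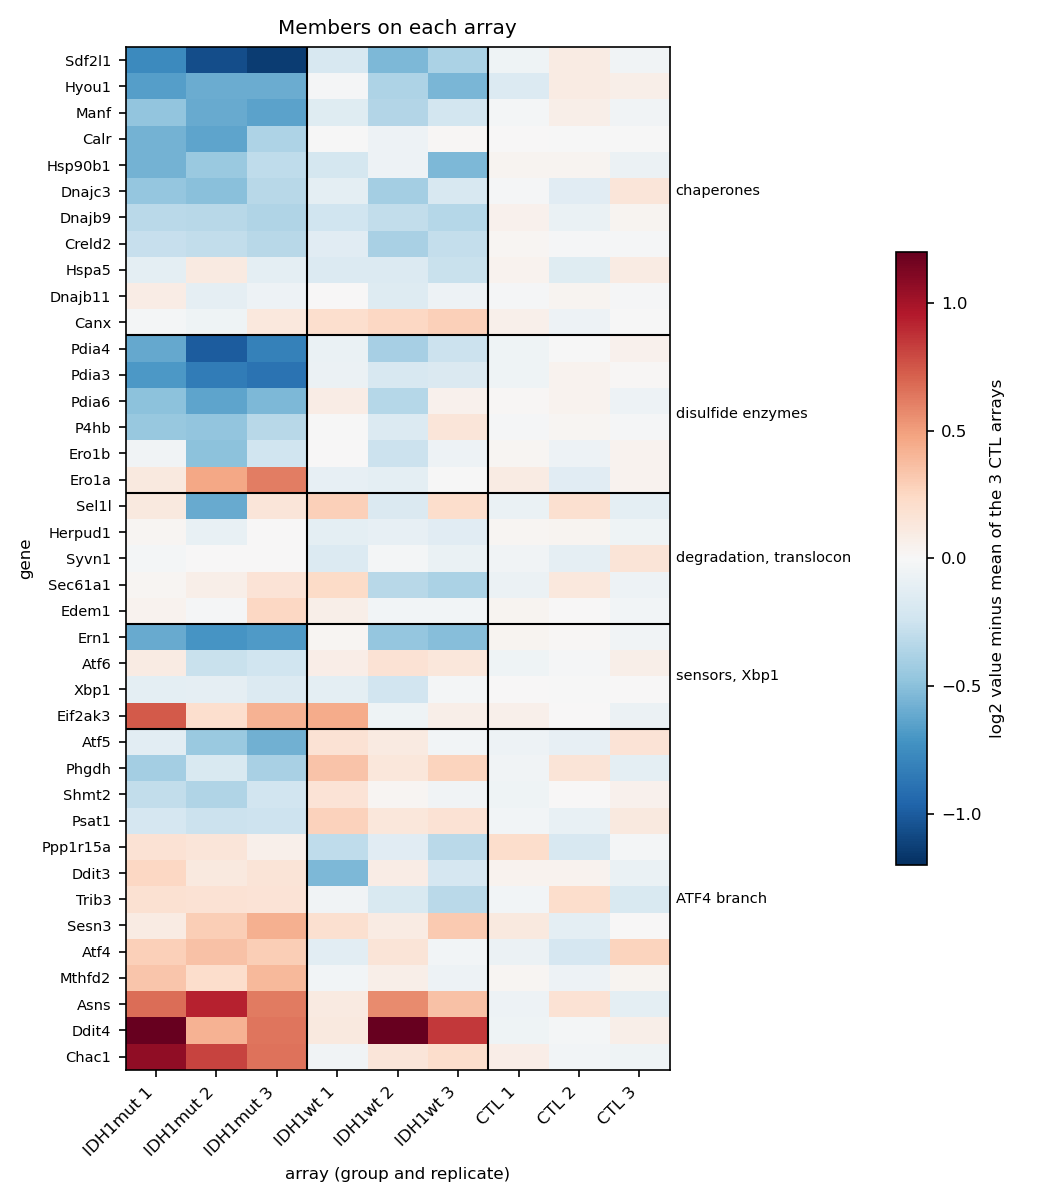
Heat map of the 39 genes (rows, grouped by role) on the 9 arrays (columns), coloured by the log2 value minus the mean of the 3 CTL arrays, with blue for lower and red for higher. Most chaperone and disulfide rows are blue on all 3 IDH1mut arrays and paler on the IDH1wt arrays, and Chac1, Ddit4 and Asns are red at the bottom.

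The regulatory letters of these genes are shown first, because the chaperone genes are the textbook carriers of the ER stress element, to which ATF6 and XBP1 bind together with the factor NF-Y. Promoter windows of 300 bases, 250 before and 50 after the gene start, were taken from RefSeq (GRCm38.p6) for 35 of the 39 genes. Sec61a1, Atf6, Manf and Hyou1 were not in that table. The element, searched on both strands as CCAAT and CCACG with 9 bases of any kind between them, lay in 8 of 15 windows of chaperone and disulfide genes (53.3%), in 1 of 7 windows of sensor, degradation and translocon genes and in 0 of 13 windows of the ATF4 branch, against 0.119% of all 32851 windows. The 10 matches follow 5′ to 3′ on the strand that reads CCAAT first, with the CCAAT and CCACG ends in capitals, and were chosen for printing after the matches were seen.
Hspa5: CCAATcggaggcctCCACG
Hsp90b1 site 1: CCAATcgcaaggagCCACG
Hsp90b1 site 2: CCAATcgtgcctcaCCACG
Calr: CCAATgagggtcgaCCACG
Canx: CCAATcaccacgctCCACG
Dnajc3: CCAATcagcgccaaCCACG
Creld2: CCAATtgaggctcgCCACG
Pdia6: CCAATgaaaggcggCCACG
Ero1b: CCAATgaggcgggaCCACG
Syvn1: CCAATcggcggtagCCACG
In GRCm38.p6, with the strand of the printed letters, the sites were those of Hspa5 at chr2:34772025-34772043 (plus), Hsp90b1 at chr10:86705638-86705656 (minus), Hsp90b1 at chr10:86705533-86705551 (plus), Calr at chr8:84847075-84847093 (plus) and Canx at chr11:50325800-50325818 (minus). The others were those of Dnajc3 at chr14:118937827-118937845 (plus), Creld2 at chr15:88819520-88819538 (minus), Pdia6 at chr12:17266491-17266509 (plus), Ero1b at chr13:12565682-12565700 (minus) and Syvn1 at chr19:6046532-6046550 (plus). The Hspa5 site began 65 bases before the gene start. A match of letters is a description and not a measured binding site.

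The compact ER stress element II (ATTGG and CCACG with 1 base between them, both strands) lay in the windows of Dnajb11 and Herpud1 and in 0.0365% of all windows. Among chaperone and disulfide genes, 5 of the 8 with the longer element fell in IDH1mut against CTL (median log2 fold change -0.37) and 5 of the 7 without it fell (median -0.42). With 1 array left out the first count ran from 2 to 5 and the other from 4 to 5, and without CTL replicate 1 or CTL replicate 3 they were 2 of 8 and 4 of 7. Without IDH1mut replicate 2 they were 2 of 8 and 5 of 7, and without IDH1mut replicate 1 or CTL replicate 2 they were 3 of 8 and 5 of 7. Of 11 measured genes outside the list whose windows held the longer element, 1 fell (median 0.04). Of 7 outside the list with element II, 4 fell. Over all genes 10.6% fell. The Sdf2l1 window, shown because Sdf2l1 had the largest fall, spans chr16:17132334-17132633 on the minus strand. It held CCAAT and CCACG, in capitals here on either strand, but not in the spacing of the whole element. CCAAT alone stood in 37.4% of all windows and CCACG alone in 32.8%, and some of these matches are parts of the longer elements.
Sdf2l1: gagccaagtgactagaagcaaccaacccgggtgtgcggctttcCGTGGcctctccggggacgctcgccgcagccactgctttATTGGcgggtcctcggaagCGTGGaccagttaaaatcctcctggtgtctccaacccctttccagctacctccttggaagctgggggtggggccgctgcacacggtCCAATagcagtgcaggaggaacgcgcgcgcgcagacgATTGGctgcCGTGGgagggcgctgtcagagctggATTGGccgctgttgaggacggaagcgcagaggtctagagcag

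Sdf2l1 is an ER protein that works with BiP and its cochaperones. It read 9.29, 8.99 and 8.92 on the IDH1mut arrays, 9.86, 9.51 and 9.68 on the IDH1wt arrays, and 10.00, 10.15 and 10.01 on the CTL arrays. All IDH1mut arrays lay below all IDH1wt arrays, and these below all CTL arrays. The fall in IDH1mut against CTL was 1.99-fold (-0.99 ± 0.12 on the log2 scale, with SE and 3 arrays a group; adjusted p = 0.000329). Calr, the gene of calreticulin, which holds newly made glycoproteins in the ER and binds calcium, read 10.10, 10.04 and 10.29 in IDH1mut, 10.67, 10.61 and 10.68 in IDH1wt, and 10.68, 10.67 and 10.66 in CTL. The IDH1mut arrays stood apart, and the arrays of the other groups overlapped. The fall was 1.44-fold (-0.52 ± 0.09; adjusted p = 0.00239). Its probe set, like those of Hspa5, Eif2ak3, Atf4, Phgdh and Shmt2, is of the _x class, whose probes may match other sequences.

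Manf, a secreted ER stress protein that binds BiP, read 9.95, 9.81 and 9.78 in IDH1mut, 10.28, 10.06 and 10.20 in IDH1wt, and 10.39, 10.49 and 10.37 in CTL. Its groups did not overlap either, with the IDH1wt arrays between the others, and it fell by 0.57 ± 0.10 on the log2 scale in IDH1mut against CTL (adjusted p = 0.00171). Hyou1, a large HSP70-like chaperone and nucleotide exchange factor of BiP, read 3.72, 3.79 and 3.79 in IDH1mut, 4.37, 4.02 and 3.84 in IDH1wt, and 4.22, 4.48 and 4.45 in CTL. It fell too (-0.62 ± 0.13; adjusted p = 0.00679), but lay below the array medians of 4.65 to 4.72, where RMA compresses differences and gives no detection call.

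Hsp90b1, the gene of the ER HSP90 chaperone GRP94, read 8.69, 8.82 and 8.96 in IDH1mut, 9.05, 9.21 and 8.72 in IDH1wt, and 9.30, 9.30 and 9.19 in CTL, and fell (-0.44 ± 0.13; adjusted p = 0.029). Its call was lost without any one of IDH1mut replicates 1 and 2 and the 3 CTL replicates (adjusted p between 0.0552 and 0.0925). Dnajc3, the BiP cochaperone P58IPK, fell as well (-0.44 ± 0.11; adjusted p = 0.0168), and lost its call without IDH1mut replicate 2, CTL replicate 1 or CTL replicate 3 (0.0514 to 0.0728). Dnajb9, the cochaperone ERdj4 and a known XBP1 target, read 9.04, 9.03 and 8.998 in IDH1mut, 9.12, 9.07 and 9.02 in IDH1wt, and 9.41, 9.28 and 9.39 in CTL, so that both IDH1 groups lay below CTL. Its fall in IDH1mut (-0.34 ± 0.09; adjusted p = 0.0162) was lost without CTL replicate 1 or 3 (0.0749 and 0.0578). Creld2, a secreted ER stress protein, fell by 0.30 ± 0.09 (adjusted p = 0.0372), a call lost without any one of the 3 IDH1mut replicates, the 3 CTL replicates and IDH1wt replicate 3 (0.0529 to 0.12).

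The other 3 chaperone genes did not pass. Hspa5 encodes BiP, the main ER HSP70, which holds the sensors inactive and is the usual marker of the unfolded protein response. It read 9.59, 9.81 and 9.58 in IDH1mut, 9.54, 9.53 and 9.43 in IDH1wt, and 9.75, 9.56 and 9.81 in CTL. IDH1mut and CTL arrays overlapped, with a log2 fold change of -0.04 (95% interval -0.27 to 0.19; adjusted p = 0.84). Dnajb11, the cochaperone ERdj3, differed by -0.03 (interval -0.23 to 0.18). Canx, the gene of calnexin, the membrane-bound relative of calreticulin, differed by 0.02 (interval -0.18 to 0.21), and its IDH1wt arrays at 7.52, 7.56 and 7.60 lay above all IDH1mut arrays (7.29, 7.27 and 7.44) and all CTL arrays (7.38, 7.25 and 7.31). Without CTL replicate 1 or CTL replicate 3, 4 of the 11 chaperone genes fell, and without IDH1mut replicate 2, 5 fell.

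Disulfide enzymes oxidise and isomerise cysteines of folding proteins. Pdia3, the isomerase ERp57 that works with calreticulin and calnexin on glycoproteins and MHC class I, read 10.65, 10.50 and 10.45 in IDH1mut, 11.27, 11.14 and 11.17 in IDH1wt, and 11.29, 11.38 and 11.35 in CTL. Every IDH1mut array was below every other array, and the fall was 1.75-fold (-0.80 ± 0.09; adjusted p = 0.000192). Pdia4, the isomerase ERp72, read 8.66, 8.27 and 8.46 in IDH1mut, 9.20, 8.88 and 9.02 in IDH1wt, and 9.22, 9.27 and 9.32 in CTL. It showed the same order of groups, with a 1.75-fold fall (-0.81 ± 0.12; adjusted p = 0.000844). Pdia6 fell by 0.55 ± 0.12 (adjusted p = 0.00657), and P4hb, the founding protein disulfide isomerase, by 0.42 ± 0.10 (adjusted p = 0.0112).

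P4hb read 11.30, 11.29 and 11.43 in IDH1mut, 11.76, 11.60 and 11.91 in IDH1wt, and 11.75, 11.78 and 11.75 in CTL, so that the IDH1wt and CTL arrays overlapped. Ero1a and Ero1b, the oxidases that recharge the isomerases, did not follow them. Ero1a, listed under its older symbol Ero1l and known in other cells as a target of CHOP and of hypoxia, read 7.60, 7.95 and 8.10 in IDH1mut, 7.39, 7.36 and 7.48 in IDH1wt, and 7.59, 7.35 and 7.52 in CTL. It rose by 0.40 ± 0.13 (adjusted p = 0.0465) with its lowest IDH1mut array just above the highest CTL array. The call was lost without any one of 8 arrays, all except IDH1mut replicate 1 (adjusted p between 0.0557 and 0.162). Ero1b, listed as Ero1lb, had a log2 fold change of -0.26 ± 0.12 (adjusted p = 0.166).

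Over the 17 chaperone and disulfide genes together, the median log2 fold change in IDH1mut against CTL was -0.44, and the values ran from -0.99 to 0.40. For 12 genes all IDH1mut arrays lay below all CTL arrays and for 1 gene above, where 21.5% and 16.3% of all genes did so. On single arrays the median of the 17 deviations from the CTL means was -0.47, -0.49 and -0.34 on the IDH1mut arrays and -0.08, -0.26 and -0.19 on the IDH1wt arrays.

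**Figure D2:**
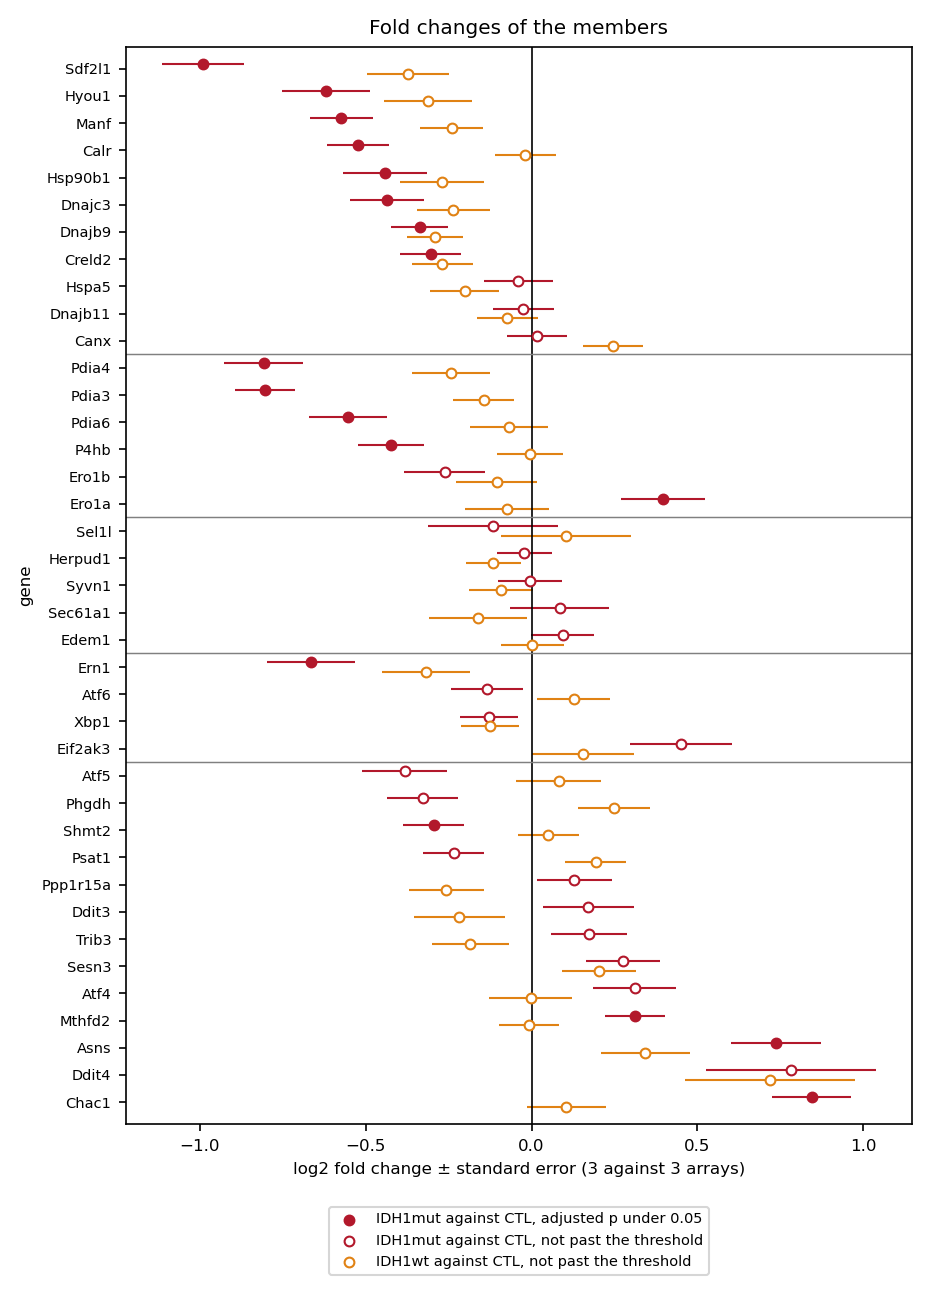
Log2 fold changes of the 39 genes (rows, grouped by role) with their standard errors (3 against 3 arrays), in IDH1mut against CTL (red, filled where the adjusted p is under 0.05) and IDH1wt against CTL (orange). The filled points of the chaperone and disulfide rows lie between -0.99 and -0.30 apart from Ero1a at 0.40, and none of the orange points is filled.

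None of the 5 measured genes of ER-associated degradation and the translocon passed in limma, and 0 had an unadjusted p under 0.05, a level that 32.3% of all genes reached. Herpud1, which organises the degradation complex and is a usual ER stress target, read 9.37, 9.26 and 9.35 in IDH1mut, 9.24, 9.25 and 9.21 in IDH1wt, and 9.37, 9.38 and 9.30 in CTL. Its IDH1mut and CTL arrays overlapped (log2 fold change -0.02, 95% interval -0.21 to 0.16). Syvn1, the ubiquitin ligase HRD1, differed by -0.00 (interval -0.21 to 0.21), and Edem1, a mannosidase-like protein that marks misfolded glycoproteins, by 0.09 (-0.11 to 0.30). The intervals were wider for Sel1l, the partner of HRD1, at -0.12 (-0.55 to 0.31), and for Sec61a1, the pore of the translocon, at 0.08 (-0.24 to 0.41).

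Of the 4 sensor genes, 1 passed in IDH1mut against CTL, where 20.7% of all genes did. Ern1 encodes IRE1alpha and read 5.30, 5.19 and 5.22 in IDH1mut, 5.93, 5.44 and 5.39 in IDH1wt, and 5.93, 5.92 and 5.86 in CTL. The IDH1mut arrays were below all others, and of the IDH1wt arrays replicate 1 was at the CTL level and the other two were not. The fall in IDH1mut against CTL was 1.58-fold (-0.66 ± 0.13; adjusted p = 0.0045). Xbp1, whose spliced and unspliced forms these probes do not tell apart, read 10.85, 10.86 and 10.80 in IDH1mut, 10.85, 10.73 and 10.94 in IDH1wt, and 10.97, 10.96 and 10.97 in CTL. The arrays of both IDH1 groups lay below the CTL arrays, by -0.13 ± 0.09 in IDH1mut (adjusted p = 0.356) and -0.13 ± 0.09 in IDH1wt (0.513).

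Atf6 differed by -0.13 ± 0.11 in IDH1mut against CTL (adjusted p = 0.443). Eif2ak3, the gene of PERK, read 4.59, 4.05 and 4.26 in IDH1mut, 4.30, 3.80 and 3.92 in IDH1wt, and 3.91, 3.86 and 3.78 in CTL, below the array medians. Its IDH1mut arrays lay above the CTL arrays, and the difference of 0.45 ± 0.15 just missed the threshold (adjusted p = 0.0597). It passed without IDH1mut replicate 2 (0.0314) or IDH1wt replicate 1 (0.0342), with repeated quantile normalisation (0.0443), with the 6 arrays compared (0.0463) and with the replicate number as a block (0.0237).

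The genes of the ATF4 branch did not move one way. Their median log2 fold change in IDH1mut against CTL was 0.17. Chac1, which degrades glutathione and is induced by ATF4 with ATF3 and CHOP, read 7.02, 6.76 and 6.60 in IDH1mut, 5.91, 6.10 and 6.16 in IDH1wt, and 6.03, 5.92 and 5.90 in CTL. The IDH1mut arrays were above all others, and the rise was 1.80-fold (0.84 ± 0.12; adjusted p = 0.000626). Asns, asparagine synthetase, read 8.62, 8.87 and 8.57 in IDH1mut, 8.06, 8.52 and 8.30 in IDH1wt, and 7.89, 8.12 and 7.84 in CTL. It rose 1.67-fold (0.74 ± 0.14; adjusted p = 0.00291), with the IDH1wt arrays between and overlapping those of CTL.

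The amino acid response element, searched as TGATGNAA on both strands, lay in the windows of Chac1, Asns and Trib3 among the 13 genes, in that of Herpud1, in 0 of the 15 of chaperone and disulfide genes, and in 3.97% of all windows. The Chac1 window (chr2:119350992-119351291, plus strand) and the Asns window (chr6:7693160-7693459, minus strand) are shown because these genes rose most, with the element in capitals, which in Chac1 lies on the strand opposite to the gene. In the Asns window the match stood at bases 228 to 235 of the 300, just before the gene start.
Chac1: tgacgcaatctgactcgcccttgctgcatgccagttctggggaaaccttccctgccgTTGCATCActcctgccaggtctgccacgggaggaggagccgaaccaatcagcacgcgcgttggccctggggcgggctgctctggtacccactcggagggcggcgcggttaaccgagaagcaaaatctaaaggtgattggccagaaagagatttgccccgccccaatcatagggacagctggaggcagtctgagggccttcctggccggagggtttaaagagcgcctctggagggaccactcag
Asns: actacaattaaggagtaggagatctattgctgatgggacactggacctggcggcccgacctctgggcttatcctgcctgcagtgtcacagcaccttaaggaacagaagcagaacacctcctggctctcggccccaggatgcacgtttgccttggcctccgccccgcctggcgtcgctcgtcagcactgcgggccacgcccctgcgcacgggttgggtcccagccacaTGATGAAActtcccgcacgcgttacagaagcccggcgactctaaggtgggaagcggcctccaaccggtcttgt
Of 442 measured genes outside the list whose window held this short element, 47 rose and 47 fell in IDH1mut against CTL. Over all genes 10.1% rose and 10.6% fell.

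Mthfd2, the mitochondrial folate enzyme, read 7.55, 7.42 and 7.60 in IDH1mut, 7.18, 7.28 and 7.16 in IDH1wt, and 7.24, 7.15 and 7.25 in CTL. The IDH1mut arrays stood above the rest, and the rise was 0.31 ± 0.09 (adjusted p = 0.0307). It was lost without any one of IDH1mut replicates 1 and 3 and the 3 CTL replicates (0.0666 to 0.0922). Shmt2, which makes glycine from serine in mitochondria and feeds the same pathway, went the other way, with 8.37, 8.30 and 8.43 in IDH1mut, 8.82, 8.69 and 8.62 in IDH1wt, and 8.61, 8.66 and 8.71 in CTL. It fell by 0.29 ± 0.09 (adjusted p = 0.042), and lost the call without any one of the 3 IDH1mut replicates, the 3 CTL replicates and IDH1wt replicate 2 (0.051 to 0.128).

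Phgdh and Psat1, successive enzymes of serine synthesis, were lower in all IDH1mut arrays than in all CTL arrays without passing. Phgdh read 8.95, 9.18 and 8.98 in IDH1mut, 9.70, 9.50 and 9.63 in IDH1wt, and 9.32, 9.52 and 9.25 in CTL (-0.33 ± 0.11 in IDH1mut against CTL, adjusted p = 0.0523, and 0.0423 without IDH1mut replicate 2). Psat1 read 8.17, 8.11 and 8.13 in IDH1mut, 8.64, 8.51 and 8.54 in IDH1wt, and 8.34, 8.29 and 8.49 in CTL (-0.23 ± 0.09; adjusted p = 0.0961). Among genes above the median level both passed, Phgdh at 0.0223 and Psat1 at 0.0352, and with an intensity trend and robust variances at 0.0151 and 0.0495 in the same order. In both genes the IDH1wt arrays had the highest mean. Atf5, a transcription factor of the same family as ATF4, had a log2 fold change of -0.38 ± 0.13 (adjusted p = 0.0553, and 0.0133 without IDH1mut replicate 1).

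The genes of the transcription factors and of growth arrest did not pass against CTL. Atf4 itself is controlled mainly by translation, and its mRNA read 8.70, 8.76 and 8.71 in IDH1mut, 8.29, 8.57 and 8.38 in IDH1wt, and 8.34, 8.21 and 8.69 in CTL. The IDH1mut arrays were the highest, with a difference of 0.31 ± 0.13 from CTL (adjusted p = 0.109, and 0.0274 without CTL replicate 3). Ddit3, the gene of CHOP, differed by 0.17 ± 0.14 (adjusted p = 0.439) and Trib3, a pseudokinase induced by CHOP, by 0.17 ± 0.12 (0.342). Both lay below the median level of all genes, where RMA compresses differences and gives no detection call. Ppp1r15a, the eIF2alpha phosphatase subunit GADD34, differed by 0.13 ± 0.11 (0.484) and Sesn3, a sestrin, by 0.28 ± 0.11 (0.108). Ddit4, the inhibitor of mTORC1 known as REDD1, varied most, with 8.73, 7.87 and 8.09 in IDH1mut, 7.57, 8.64 and 8.29 in IDH1wt, and 7.40, 7.43 and 7.52 in CTL. Both IDH1 groups lay above CTL, and neither difference passed (0.78 ± 0.26, adjusted p = 0.0516 in IDH1mut; 0.72 ± 0.26, 0.186 in IDH1wt). The IDH1mut difference passed without IDH1mut replicate 2 (0.0361), IDH1wt replicate 1 (0.0156) or IDH1wt replicate 2 (0.0315), and the IDH1wt difference without IDH1wt replicate 1 (0.0347).

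**Figure D3:**
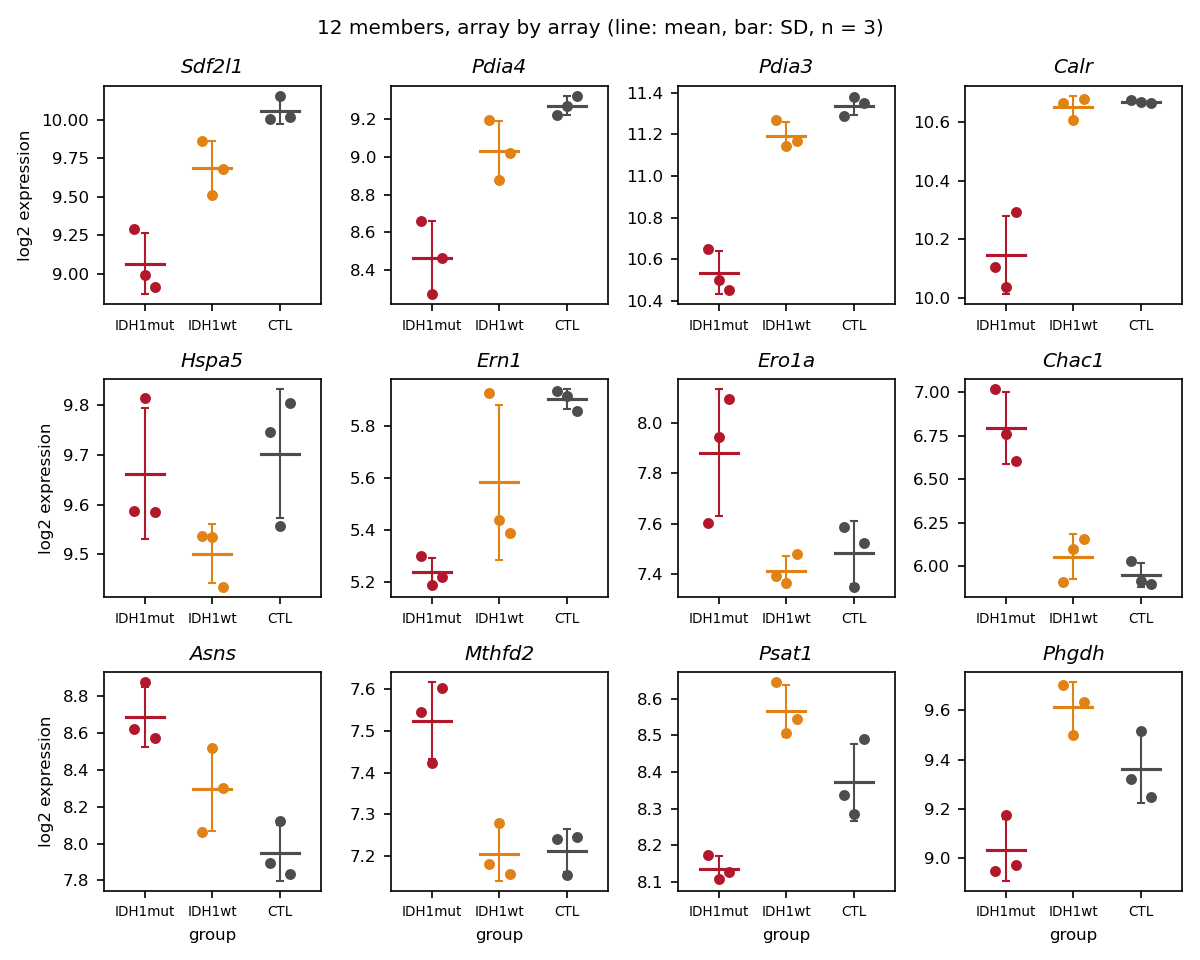
Log2 expression of 12 genes on each array (points), by group, with the mean (line) and SD (bar, n = 3), each panel with its own axis that does not start at 0. Sdf2l1, Pdia4, Pdia3 and Calr are lowest in IDH1mut, Chac1, Asns and Mthfd2 are highest there, and Hspa5 overlaps between IDH1mut and CTL.

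In IDH1wt against CTL, which uses the same 3 CTL arrays, 0 of the 39 genes passed in limma, where 1.62% of all genes rose and 0.711% fell (2.33% together, or 414 genes, and 132 to 211 without any one of CTL replicates 1 and 3 and IDH1wt replicates 2 and 3). At an unadjusted p under 0.05 there were 4 higher and 7 lower, and 17% of all genes reached that level. The median over the chaperone and disulfide genes was -0.20, with 16 of the 17 values below 0, and over the ATF4 branch 0.08. Over all genes the median was -0.04, with 10373 of the 17731 values below 0. The IDH1wt arrays lay wholly below the CTL arrays for 7 chaperone and disulfide genes and wholly above for 1, where 12.9% and 10.7% of all genes did. Sdf2l1 differed by -0.37 ± 0.12 (adjusted p = 0.16), Dnajb9 by -0.29 ± 0.09 (0.109), Creld2 by -0.27 ± 0.09 (0.168) and Manf by -0.24 ± 0.10 (0.233). Hspa5 differed by -0.20 ± 0.10 (0.357), Pdia4 by -0.24 ± 0.12 (0.33) and Pdia3 by -0.14 ± 0.09 (0.467), and Canx, the gene with the arrays above, by 0.25 ± 0.09 (0.198). Calr and P4hb were near 0, with intervals of -0.22 to 0.19 and -0.22 to 0.21. Ern1 differed by -0.32 ± 0.13 (0.253) and passed without IDH1wt replicate 1 (0.0254).

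The direct comparison of IDH1mut with IDH1wt tests whether the cells with the mutant and wild-type vectors differ. The labels do not name clones, so a difference of vector and one of clone cannot be told apart. Of the 39 genes 4 rose and 11 fell, where 6.54% and 6.78% of all genes did (13.3% together, or 2363 genes, 1528 without IDH1mut replicate 2 and 1475 without IDH1wt replicate 3). For 11 genes all IDH1mut arrays lay above all IDH1wt arrays and for 14 below, where 14.1% and 15.5% of all genes did so. Among the chaperone and disulfide genes 7 fell, namely Calr, Sdf2l1, Manf, Pdia3, Pdia4, Pdia6 and P4hb, and Ero1a rose. Pdia3 had the lowest adjusted p of them (-0.66 ± 0.09, 1.58-fold; adjusted p = 0.00122), followed by Calr (-0.51 ± 0.09; 0.0051), Sdf2l1 (-0.62 ± 0.12; 0.00808) and Pdia4 (-0.56 ± 0.12; 0.01). All IDH1mut arrays lay below all IDH1wt arrays in each of these. Pdia6 (-0.49 ± 0.12; 0.0193), P4hb (-0.42 ± 0.10; 0.0181), Manf (-0.33 ± 0.10; 0.0413) and Ero1a (0.47 ± 0.13; 0.0315) passed too. Without IDH1mut replicate 2 or IDH1wt replicate 3, 4 of the 7 falls remained, since Pdia6, P4hb and Manf were lost in both cases (adjusted p between 0.063 and 0.115). Pdia6 was also lost without IDH1wt replicate 1 (0.0678), Ero1a without IDH1mut replicate 2 or 3 or any IDH1wt replicate (0.0649 to 0.106), and Manf without 7 of the 9 arrays, all except IDH1mut replicate 1 and IDH1wt replicate 2 (0.0504 to 0.124). Dnajb9 (-0.05 ± 0.09; 0.784) and Creld2 (-0.03 ± 0.09; 0.859), which had fallen against CTL, did not pass against IDH1wt.

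In the ATF4 branch 3 of 13 genes rose and 4 fell in IDH1mut against IDH1wt, where 6.54% and 6.78% of all genes did. Chac1 rose by 0.74 ± 0.12 (1.67-fold; adjusted p = 0.00245), Ppp1r15a by 0.39 ± 0.11 (0.0448) and Mthfd2 by 0.32 ± 0.09 (0.0391). The 4 that fell were Phgdh (-0.58 ± 0.11; 0.00572), Psat1 (-0.43 ± 0.09; 0.0107), Shmt2 (-0.34 ± 0.09; 0.0302) and Atf5 (-0.46 ± 0.13; 0.0346). The serine synthesis genes Phgdh and Psat1 passed against IDH1wt and not against CTL. Asns differed by 0.39 ± 0.14 (0.0801, 0.039 without IDH1wt replicate 2, and 0.0334 to 0.0491 under 4 settings that keep all arrays). Trib3 differed by 0.36 ± 0.12 (0.0649, 0.0435 without CTL replicate 2, and 0.0379 with array weights) and Ddit3 by 0.39 ± 0.14 (0.0902, and 0.0177 without IDH1wt replicate 2). In each of these 3 genes all IDH1mut arrays lay above all IDH1wt arrays. The signals of Trib3 and Ddit3 lay below the median level of all genes.

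The calls of 4 of these 7 genes were near the threshold and were lost when any one of several arrays was left out. Ppp1r15a was lost without any one of the 3 IDH1mut replicates, IDH1wt replicates 1 and 3 and CTL replicate 3 (0.0653 to 0.138), and Mthfd2 without IDH1mut replicates 1 or 3, IDH1wt replicates 1 or 3 or CTL replicates 1 or 3 (0.0585 to 0.123). Shmt2 was lost without IDH1mut replicates 1 or 2 or IDH1wt replicates 1 or 2 (0.0565 to 0.101), and Atf5 without IDH1mut replicates 2 or 3, any IDH1wt replicate or CTL replicate 1 (0.0513 to 0.116). Chac1, Phgdh and Psat1 kept their calls whichever array was left out.

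Of other genes of the same pathway, 174 were measured in 7 lists, and 17 rose and 58 fell in IDH1mut against CTL. Over all genes 10.1% rose and 10.6% fell. The oligosaccharyl transferase and glycan trimming genes, which attach and trim the sugars that calreticulin and calnexin read, fell in 16 of 20 and rose in 0 (limma, also 16 and 0 at an unadjusted p under 0.05), with a median log2 fold change of -0.45. Stt3a, the catalytic subunit, fell 1.84-fold (-0.88 ± 0.10; adjusted p = 0.000174), and Krtcap2, an accessory subunit, 1.68-fold (-0.75 ± 0.11; 0.000774). In IDH1mut against IDH1wt 11 of the 20 fell (6.78% of all genes did), and 7 without IDH1wt replicate 3. Of 35 other folding, disulfide and proline isomerase genes 19 fell and 1 rose (median -0.37), led by Fkbp11, a proline isomerase of secretory cells (-1.35 ± 0.17, 2.54-fold; adjusted p = 0.000329), and Qsox1, a sulfhydryl oxidase (-0.96 ± 0.14; 0.000666). Without CTL replicate 1, 12 of the 35 fell. The gene that rose was Sdf4, a calcium-binding protein of the Golgi (0.36 ± 0.10; 0.0231), and it did not pass without IDH1mut replicates 1 or 3 or CTL replicates 2 or 3 (0.0639 to 0.0782). Sdf4 also rose in IDH1wt against CTL (0.44 ± 0.10; 0.0418), a call lost without any one of 8 arrays, all except IDH1mut replicate 1 (0.0508 to 0.138), and did not pass between the IDH1 groups (-0.08 ± 0.10; 0.661).

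Genes of protein entry and exit were more mixed, in a comparison where 10.6% of all genes fell and 10.1% rose. Of 21 other translocon, signal peptidase and signal recognition genes 8 fell and 2 rose (median -0.25), and 5 fell without CTL replicate 3. Ssr4 (-0.76 ± 0.11; 0.000847) and Ssr2 (-0.69 ± 0.10; 0.000608), subunits of the translocon-associated complex, fell most, whereas Sec61a2, a paralogue of the pore gene, rose (0.85 ± 0.11; 0.000421), as did Spcs1 of the signal peptidase (0.63 ± 0.12; 0.00294). Spcs1 read 2.41 to 3.28 over the 9 arrays, below the array medians and with no detection call. The values of Sec61a2 were below the array medians too in CTL (3.72 to 4.14) and IDH1wt (4.52 to 4.60), and were 4.72 to 4.86 in IDH1mut. Sec61a2 also rose in IDH1wt against CTL (0.63 ± 0.11; 0.0146, lost without IDH1wt replicate 3 or CTL replicate 1 at 0.0626 and 0.0591), and did not pass between the IDH1 groups (0.22 ± 0.11; 0.243). Of 24 other degradation genes 6 fell and 2 rose (median -0.15), with the lectin gene Os9 (-0.86 ± 0.14; 0.00128) and the mannosidase-like Edem3 (-0.65 ± 0.12; 0.00335) on one side and Fam8a1 (0.65 ± 0.11; 0.00186) and Derl2 (0.63 ± 0.13; 0.00636), both of the HRD1 complex, on the other.

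Of 26 other genes of sensors and kinases 5 fell and 4 rose, where 10.6% of all genes fell and 10.1% rose. Atf6b, a paralogue of Atf6, fell (-0.49 ± 0.11; 0.00784), as did Traf2, an adaptor of IRE1 (-0.49 ± 0.09; 0.0039), and Map3k5, the kinase ASK1 downstream of it, rose (0.79 ± 0.14; 0.0027). Map3k5 also rose in IDH1wt against CTL (1.53 ± 0.14; 0.000273), and IDH1mut lay below IDH1wt (-0.74 ± 0.14; 0.00704). Of 21 other ATF4 targets in amino acid transport and synthesis 3 rose and 3 fell (14.3% each way, median -0.01). The transporters Slc38a2 (0.56 ± 0.10; 0.00259) and Slc7a11 (0.52 ± 0.11; 0.00533) rose, the last of them at 2.95 to 3.65 over the 9 arrays and so below the array medians, while Aldh18a1 of proline synthesis (-0.66 ± 0.13; 0.00468) and Psph, the last enzyme of serine synthesis (-0.54 ± 0.12; 0.00683), fell. Of 27 other ATF4 and CHOP linked genes 5 rose, led by Cebpg, a dimer partner of ATF4 (0.82 ± 0.15; 0.00308), and the Chac1 relative Chac2 (0.69 ± 0.15; 0.00709), and Vldlr, a lipoprotein receptor gene, fell (-0.92 ± 0.15; 0.00172). Vldlr read 2.14 to 3.36 over the 9 arrays, near the bottom of the scale, where no detection call tells signal from background. It fell in IDH1wt against CTL as well (-0.71 ± 0.15; 0.0363, lost without IDH1mut replicate 3, IDH1wt replicates 1 or 2 or any CTL replicate at 0.051 to 0.152) and did not pass between the IDH1 groups (-0.21 ± 0.15; 0.44). Without IDH1mut replicates 1 or 2 or CTL replicate 3, 3 of the 27 rose, and without CTL replicate 1, 2 rose.

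**Figure D4:**
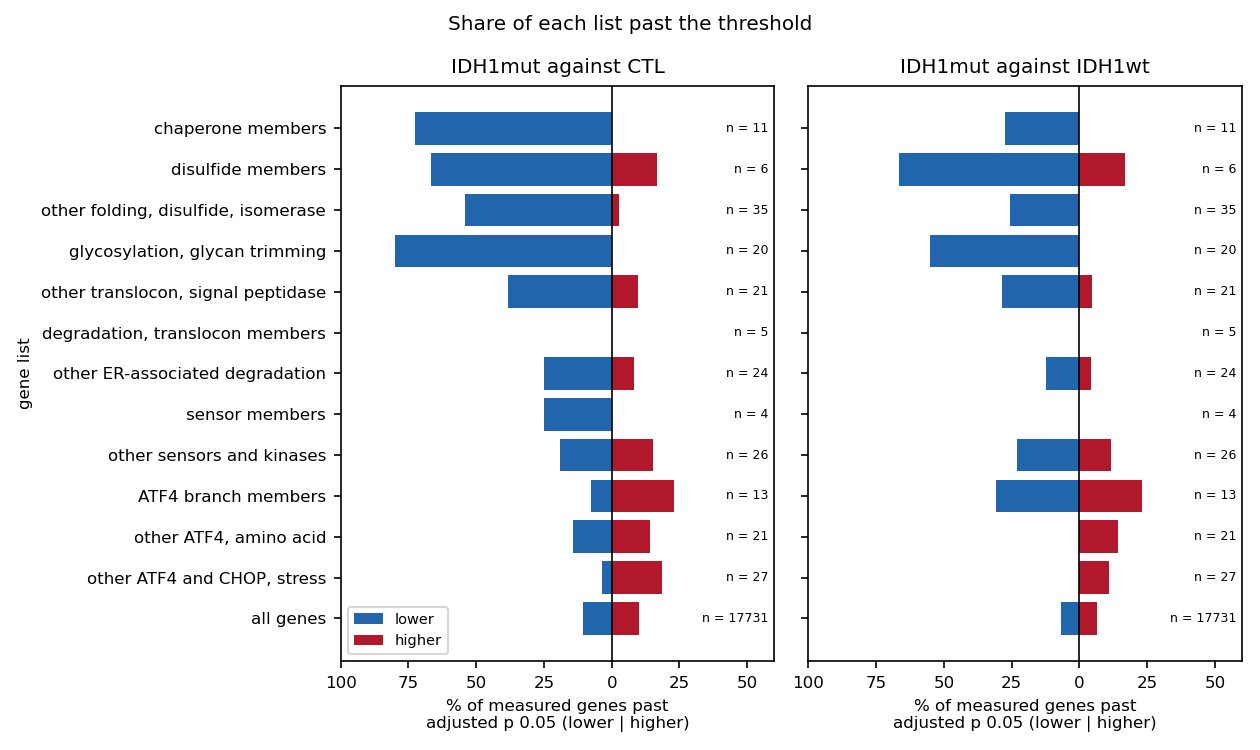
Share of the measured genes of each list (rows) that passed an adjusted p of 0.05, lower to the left in blue and higher to the right in red, in IDH1mut against CTL (left panel) and IDH1mut against IDH1wt (right panel), with all 17731 genes in the last row. In the left panel the glycosylation, chaperone, disulfide and other folding lists show 54.3% to 80% of genes lower, against 10.6% of all genes.

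Markers of marrow cells moved in the same comparison, in which 10.1% of all genes rose and 10.6% fell. Of 9 primary granule genes, which encode the proteases and peroxidase made in promyelocytes, 7 fell and 1 rose in IDH1mut against CTL (median log2 fold change -0.95), and their summed linear level was 25983 to 26693 on the IDH1mut arrays, 38870 to 42781 on the IDH1wt arrays and 42031 to 44279 on the CTL arrays. The 7 falls were called whichever array was left out, and the rise was lost without IDH1mut replicates 1 or 3 or any CTL replicate. Mpo, myeloperoxidase, averaged 12.69 in IDH1mut and 13.31 in CTL, so the sorted cells carried primary granule transcripts in both. Of 13 late neutrophil genes 9 rose (median 0.64; sums of 118026 to 121153 in IDH1mut, 96216 to 98087 in IDH1wt and 93434 to 99220 in CTL). On single arrays the primary granule median deviated from CTL by -0.88, -0.87 and -0.84 in IDH1mut, beside the -0.47, -0.49 and -0.34 of the chaperone and disulfide genes.

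Plasma cells are rich in the same machinery, and of 9 plasma cell genes 2 fell and 1 rose, where 10.6% of all genes fell and 10.1% rose. Their summed levels overlapped (1343 to 1712 in IDH1mut, 1633 to 1734 in IDH1wt and 1453 to 1792 in CTL). Sdc1 fell (-1.05; adjusted p = 0.014), but did not pass without CTL replicate 1 (0.0578) or CTL replicate 3 (0.0536), and Jchain did not pass (-0.30; 0.298). Mzb1 had a log2 fold change of 0.98 (0.0574), passing without IDH1mut replicate 2 (0.0255) or CTL replicate 2 (0.0249), while Prdm1 did not pass (0.23, adjusted p = 0.268). The 4 plasma cell genes named thus lay on both sides of CTL. Against IDH1wt Mzb1 rose (1.67, adjusted p = 0.00743) and Sdc1 fell (-1.36, adjusted p = 0.006), while Jchain (-0.47, 0.131) and Prdm1 (-0.11, 0.669) did not pass. Of the 9 genes 3 fell and 1 rose there (median -0.40), where 6.78% of all genes fell and 6.54% rose. Of 11 erythroid genes 10 rose, with sums of 4998 to 5730 in IDH1mut, 1605 to 4993 in IDH1wt and 1939 to 2146 in CTL (6 rose without CTL replicate 2). Of 8 mast cell, basophil and eosinophil genes 3 fell and 1 rose, of 7 monocyte and macrophage genes 1 fell and 1 rose (0 rose in limma without IDH1mut replicate 2, CTL replicate 1 or CTL replicate 3), and 2 of 8 B cell and 2 of 8 T and NK cell genes rose. The rises of the B cell list were lost without IDH1mut replicate 3, CTL replicate 1 or CTL replicate 3, and those of the T and NK cell list without IDH1mut replicates 2 or 3 or CTL replicate 2. RMA lists no gene at 0. The part of these cell types in the changes of the folding and ATF4 genes was not tested.

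**Figure D5:**
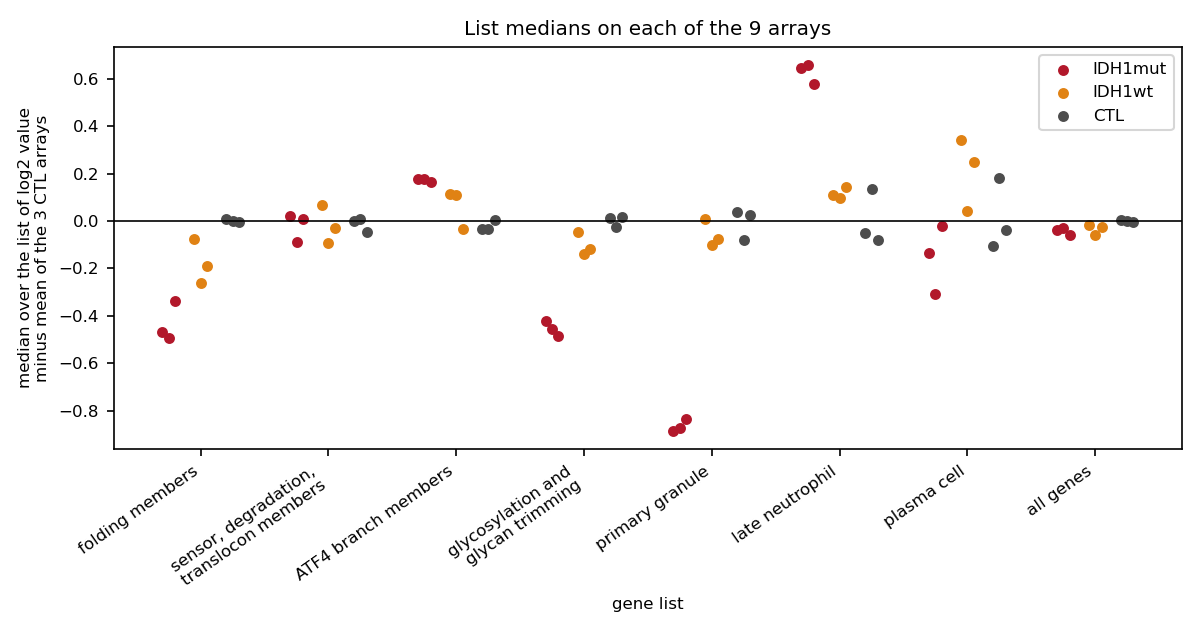
Median over each gene list (horizontal axis) of the log2 value minus the mean of the 3 CTL arrays, 1 point per array, in red for IDH1mut, orange for IDH1wt and grey for CTL. The folding, glycosylation and primary granule lists lie below 0 on all 3 IDH1mut arrays and the late neutrophil list above, whereas the plasma cell points of IDH1mut and CTL overlap.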

How the data were processed

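Log2 expression values per probe set, deposited for 9 arrays, were used. The submitters' processing notes name RMA, without a version, and RMA subtracts background, equalises the distributions of arrays and combines the probes of a set. The log2 scale was read from the values. How the authors reduced the array to about 1 probe set a gene is not stated in the labels. Of 20877 probe sets, 17815 had a single gene symbol in the platform annotation of 2016, and the 244 with several and 2818 with none were dropped, which left 17731 genes. Ero1l and Ero1lb were matched to Ero1a and Ero1b through synonyms in the gene table.

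The fit in limma 3.58.1 (R 4.3.3) used a mean for each group over the 9 arrays and no covariate. Its 3 contrasts were tested two-sided with Benjamini-Hochberg adjustment over 17731 genes at 0.05. Statements that arrays do not overlap are descriptions, since 3 against 3 arrays cannot go below an exact permutation p of 0.1. When tested on simulated data for IDH1mut against CTL, with known changes set in a small part of 17731 genes, the fit recovered 0% of changes of 0.25 log2 units, 32% at 0.5, 82% at 1 and 100% at 2, with 6 false among 113 calls. The real comparison called 3663 genes, so its adjusted threshold was less strict than the simulated one. The recovered shares therefore do not give the sensitivity in the real data. Correlations between arrays were 0.992 to 0.997 within groups and 0.982 to 0.992 between them, and the number of arrays limits the precision. Promoter windows came from RefSeq (GRCm38.p6).

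The genes, their roles and the other lists were chosen with earlier results of these data known. Every measured gene of the 40 could be named, as could, of each other pathway list, the 2 risen and 2 fallen genes of largest size in IDH1mut against CTL, and up to 4 listed genes of each marker list. The alternatives were averaging a gene's probe sets, testing only genes above the median level, repeating the quantile normalisation, centring arrays on their medians, using the 6 arrays compared, an intensity trend with robust variances, weighting arrays, blocking on the replicate number, and leaving out each array. They were run on the role groups, the other lists, the genes named from them and the genes split by the element by a choice made after seeing the data.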

Additional observations from a re-analysis of the deposited data

Results flagged for a closer look

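Psat1, phosphoserine aminotransferase, had all IDH1mut arrays below all CTL arrays and all IDH1wt arrays above them, so the 2 IDH1 groups lay on opposite sides of CTL. Against CTL its value was -0.23 ± 0.09 (SE) for IDH1mut, with an adjusted p of 0.0961, and 0.19 ± 0.09 for IDH1wt, with an adjusted p of 0.312, on the log2 scale in limma. Neither passed as fitted, and both use the same CTL arrays. The IDH1mut difference passed when only genes above the median level were tested (adjusted p = 0.0352) and with an intensity trend and robust variances (0.0495). The difference between the IDH1 groups was tested directly and passed (-0.43 ± 0.09; adjusted p = 0.0107), with the 3 IDH1mut arrays below the 3 IDH1wt arrays.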

How the results depend on the processing

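In IDH1mut against CTL, 11 of the 18 called genes kept their call under every alternative run and 7 lost it under at least 1, and in IDH1mut against IDH1wt 7 of 15 kept it. Each of the 39 genes had 1 probe set, so averaging probe sets left their values unchanged and was no check of them. No called gene of the 39 changed sign under these alternatives. With 1 array left out, all genes called ran from 2370 to 3805 in IDH1mut against CTL, from 132 to 570 in IDH1wt against CTL and from 1475 to 2193 in IDH1mut against IDH1wt. In the same order of comparisons the chaperone and disulfide genes called lower ran from 8 to 12, 0 to 0 and 4 to 7, and the ATF4 branch genes called higher from 2 to 4, 0 to 1 and 1 to 5. Chaperone and disulfide genes called higher ran from 0 to 1 in both IDH1mut comparisons, and ATF4 branch genes called lower from 0 to 1 against CTL and 2 to 4 against IDH1wt.

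Other settings moved some counts by over 1.5 times. In IDH1mut against CTL the ATF4 branch genes called lower, 1 as reported, were 4 among genes above the median level, 4 with the intensity trend, 2 with array weights and 0 with the replicate block, and the chaperone and disulfide genes called higher, 1 as reported, were 0 with the 6 arrays compared and 0 with the replicate block. Genes that passed there under settings other than leaving out an array were Psat1 (2 settings), Phgdh (3), Atf5 (3), Ddit4 (4) and Eif2ak3 (3), with adjusted p between 0.0151 and 0.0495. Calls lost there under such settings were those of Creld2 (1 setting), Mthfd2 (1), Ero1a (2) and Shmt2 (2), with adjusted p between 0.0533 and 0.0725. In IDH1wt against CTL, where 0 were called, 1 chaperone and disulfide gene (Dnajb9) was called lower among genes above the median level, 1 with the intensity trend and 1 with array weights, 1 ATF4 branch gene was called higher with array weights, and the 414 genes called over all became 717 with the trend and 1226 with array weights. In IDH1mut against IDH1wt the 3 ATF4 branch genes called higher became 1 after centring and 5 with array weights, the 4 called lower became 2 with the 6 arrays compared and 2 with the replicate block, and the 1 chaperone and disulfide gene called higher became 0 with the 6 arrays compared. Asns passed there under 4 such settings, Trib3 with array weights and Canx among genes above the median level (0.0452). Calls lost there were those of Manf, Ppp1r15a, Shmt2 and Atf5 (2 settings each), Mthfd2 (3) and Ero1a (1), with adjusted p between 0.0508 and 0.0861. The cause was not tested.

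Uncalled log2 fold changes near 0 changed sign. With 1 array left out, those in IDH1mut against CTL ran from -0.12 to 0.011 for Hspa5, -0.037 to 0.049 for Canx, -0.083 to 0.015 for Dnajb11, -0.046 to 0.012 for Herpud1, -0.059 to 0.072 for Syvn1 and -0.24 to 0.13 for Sel1l, and Canx was -0.021 with array weights and Syvn1 0.0037 after centring. In IDH1wt against CTL they ran from -0.033 to 0.0032 for Calr, -0.14 to 0.069 for Pdia6, -0.081 to 0.074 for P4hb, -0.0074 to 0.096 for Shmt2 and -0.044 to 0.017 for Mthfd2. Calr was 0.029 there and P4hb 0.0027 after repeated quantile normalisation, P4hb 0.011 and Mthfd2 0.0083 after centring, and P4hb 0.046 with array weights. In IDH1mut against IDH1wt Creld2 ran from -0.095 to 0.034.

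The replicate numbers did not pair the arrays: deviations of same-numbered arrays correlated at -0.086 to 0.026 (9 pairs) and of other pairs at -0.075 to 0.084. With the replicate block 3383, 314 and 2035 genes were called in the 3 comparisons, in the order above. With 3 arrays a group small changes can be missed, and the low signals of Hyou1, Eif2ak3, Ddit3 and Trib3 limit what their values resolve.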
